A study of Danio rerio with 9 samples.

Results

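Cells sorted for a low cd41:GFP signal from wild-type (WT) zebrafish were followed across 4 ages. The members were every barcode of the 4 WT libraries, at 2.5, 6, 10 and 16 days post fertilization (dpf), with at least 500 unique molecular identifiers (UMIs), at least 200 genes and at most 20% of UMIs in mitochondrial genes. That gave 2200, 2728, 2583 and 6114 cells in order of age, in all 13625 of the 29994 cells of the series that met the same limits. All animals were of the EK strain and carried the tg(cd41:GFP) transgene, a green fluorescent protein driven by the promoter of cd41 (itga2b). The other 5 libraries of the series came from runx1-/- animals with an 8 bp deletion (del8) at 2.5, 6, 10 and 16 dpf, with a library called bloodless and one called recovered at 16 dpf, terms that the labels do not define. Dim cells were sorted by fluorescence and captured on the 10x Genomics Chromium system. How many animals were pooled per library is not stated. Each WT age had 1 library, so the spread between animals is unknown, the comparisons of WT ages carry no test, and their intervals cover counting error only.

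In zebrafish, a dim cd41 reporter is used to enrich blood stem and progenitor cells, while bright cells are thrombocytes, the nucleated counterparts of platelets. Larval blood begins with primitive red cells that carry embryonic globins, and definitive stem cells, which arise from the wall of the dorsal aorta, later supply red cells with adult globins together with neutrophils, macrophages and lymphocytes. Runx1 is a transcription factor needed for the emergence of definitive stem cells in vertebrates, and Gata2 factors act beside it.

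Levels are in CPM (the count of a gene scaled to a fixed library total) of the counts summed over the cells of a library, over the 24201 genes that the gene lists of all files share. WT libraries held 27927467 to 84850341 UMIs, and the kept cells had median depths of 10818 UMIs at 10 dpf to 13353 at 6 dpf. The 2.5 dpf files used another gene list, and their smallest barcode held 2915 UMIs against 500 to 505 in the later WT files, so that levels at 2.5 dpf are set beside the others and the step from 6 to 16 dpf is described in most detail. Among kept WT cells, 3, 46, 17 and 38 at the 4 ages had a barcode that also occurred in another library of the series. Before the cell filter, the WT and runx1-/- libraries at 6 dpf shared 22 barcodes, 2.75% of the smaller one. No other pair with a WT library shared more than 0.2905%. The reporter's own gene, itga2b, was read at 1.75, 2.63, 6.14 and 0.708 CPM in order of age, so it was present at every age and lowest at 16 dpf. In sums over mixed cells, fewer cells of a type and less RNA per cell cannot be told apart.

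The cell mix was read from clusters made in each library alone and named by marker genes, and the sort held more than blood. Epidermis-like cells, led by keratins such as krt5 and krt91, were 278 of 2200 cells at 2.5 dpf (12.6%, exact 95% interval 11.3 to 14.1%), 192 (7.04%) at 6 dpf, and 6 (0.232%) and 115 (1.88%) at the later ages. Cartilage-like, fibroblast-like and neuron-like cells made up 5.23%, 6.55% and 5.50% at 2.5 dpf. Neuron-like cells were named again at 16 dpf, as 109 cells (1.78%), while the fibroblast-like class was named at 2.5 dpf alone. Thinned calls of epidermal markers (at least 3 UMIs from at least 2 markers, in cells thinned to 2000 UMIs) gave 16.9%, 6.15%, 3.19% and 7.58% of cells and so were not lower at 16 than at 6 dpf, and at 16 dpf they included 15.8% of HSPC-like and 8.36% of neutrophil-like cells. Of these markers the claudin gene cldni was at 417, 180, 602.4 and 1432 CPM, whereas krt5 was at 2241, 297.6, 21.6 and 34.1 CPM. All named classes other than blood made up 29.9%, 7.63%, 0.232% and 9.01% of cells in order of age, lowest at 10 dpf.

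Germ cell-like cells were named at 16 dpf alone, as 327 of 6114 cells (5.35%, 4.80 to 5.94%) in 2 clusters. The larger one, of 219 cells, was led by ddx4 (vasa), piwil1 and dazl, RNA-binding and piRNA-pathway genes of the germline. The other, of 108 cells, was led by sycp1 and sycp3, parts of the synaptonemal complex of meiosis, and held dmc1, a meiotic recombinase, among its leading genes. By the same thinned call with germ cell markers, the share was 0.0909% at 2.5 dpf, 0 of 2472 cells at 6 dpf, which allows a share of up to 0.149%, 0.0415% at 10 dpf and 5.16% at 16 dpf. The thinned call and the clusters, which rest on the same marker list, both had the germline signal high in 1 of the 4 libraries.

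Erythroid-like cells, led by globins, slc4a1a and hemgn, numbered 97 (4.41%), 697 (25.6%, 23.9 to 27.2%), 355 (13.7%) and 450 (7.36%, 6.72 to 8.04%) in order of age. The log2 ratio of the share at 16 over 6 dpf was −1.80 (−1.97 to −1.62). Thinned marker calls put the share at 8.68%, 11.8%, 8.63% and 4.83% in order of age, against 0 to 0.488% of neutrophil-like cells called by the same markers. Of HSPC-like cells they called 8.93%, 1.85%, 0.867% and 0.184%. At 2.5 dpf the call was thus as frequent in HSPC-like cells as in the whole library, and was not specific to erythroid-like cells. By both measures 6 dpf was highest, and 16 dpf was below 6 and 10 dpf.

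Clusters that carried stem and progenitor markers (HSPC-like) changed in their leading genes, so their shares are given cluster by cluster. At 2.5 dpf, 4 such clusters with 997 cells were led by genes such as gfi1aa, drl, tal1 and myb. At 6 dpf a cluster of 497 cells (18.2%) was led by blf, dachb and tal1. A further 405 cells had plk2b, tcf15 and zgc:153317 as leading genes and 126 cells had cell cycle genes such as rrm2 and mki67, both without any HSPC marker among the leading 10. At 10 dpf the 2 named clusters held 235 cells, led by dachb and blf among others, and 113 cells led by fstb and nkx2.3. Neither had an HSPC marker among its 10 leading genes. At 16 dpf the only cluster that kept the name had 551 cells (9.01%), led by nkx2.3 and fstb, with no HSPC marker among its 10 leading genes. Clusters that scored highest for HSPC markers, whether they were named or not, took 55.6%, 37.7%, 38.2% and 31.1% of cells. The thinned call of HSPC markers found 13.7%, 13.9%, 23.4% and 6.52% of cells in order of age, against 4.30%, 0.337%, 11.2% and 2.89% of neutrophil-like cells. The thinned call was thus highest at 10 dpf, where the call in neutrophil-like cells was highest too, and lowest at 16 dpf.

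Among the leukocyte classes, neutrophil-like clusters with markers such as lyz, lect2l or npsn among their leading genes held 4.23%, 3.04%, 5.27% and 12.2% (11.4 to 13.1%) of cells in order of age. Further clusters that took the name at 6 and 10 dpf had no neutrophil marker among their leading genes and raised the share to 11.6% and 8.56%. The thinned call of neutrophil markers gave 7.09%, 4.57%, 6.64% and 12.8%, highest at 16 dpf, against 0.616% to 3.13% of HSPC-like cells. Macrophage-like cells were 50, 40, 184 and 210 in order of age, at most 7.12% (10 dpf). The thinned call of macrophage markers gave another order, 1.91%, 0.607%, 1.33% and 0.904%, highest at 2.5 dpf. Thrombocyte-like cells were 50, 44, 123 and 183, at most 4.76% (10 dpf). A cluster led by chemokines (ccl36.1, ccl20a.3), by NK-lysin genes (nkl.2, nkl.4) or by fcer1g was named T and NK lymphoid-like from 6 dpf on, with 166, 156 and 264 cells. In the cells of that name cd4-1 and cd8b, which define helper and cytotoxic T cells, were at 0 counts at all 3 ages and the T-cell kinase gene lck at 1 or 2, so the defining T-cell genes do not bear the name out, and at 6 dpf no marker stood among the 10 leading genes. At 10 dpf 69 more cells took the name, led by si:dkey-21e2 genes. Clusters without a name held 11.6%, 8.39%, 43.4% and 51.7% of cells, so the named shares describe less of the library at 10 and 16 dpf than before.

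**Figure D1:**
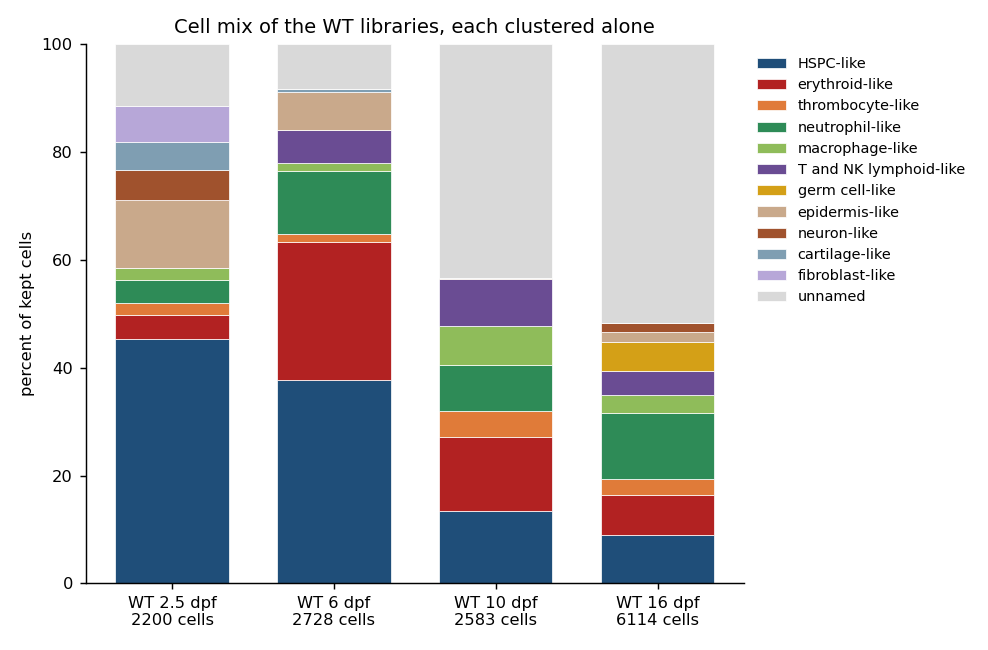
Share of kept WT cells (percent) in each named class, stacked, for the libraries at 2.5, 6, 10 and 16 dpf (1 library each). The erythroid-like share is highest at 6 dpf (25.6%), germ cell-like cells appear at 16 dpf (5.35%), and cells in unnamed clusters reach 51.7% at 16 dpf.

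The globins gave the clearest order by age, with a limit on the step from 2.5 to 6 dpf that is given below. The sum of 5 adult globin genes was 0.146 CPM (0.0397 to 0.373) at 2.5 dpf and 8.71 CPM (7.78 to 9.72) at 6 dpf. It was 202 CPM (197 to 207) at 10 dpf and 2393 CPM (2383 to 2404) at 16 dpf. At 10 dpf only 40 cells had any adult globin UMI, and 96.7% of the counts lay in 10 cells, against 26.6% at 16 dpf. The 10 dpf levels of the adult globins thus rest on few cells, which their intervals do not cover. The 7 embryonic globins present in all gene lists together were at 2652, 2493, 2914 and 253 CPM, with 16 dpf far below the 3 earlier ages. The gene list of the later files also holds hbbe1.1, at 3400 CPM at 6 dpf, 2129 at 10 dpf and 142 at 16 dpf, more than any embryonic globin of the shared list, and hbbe1.2. With these, an alternative chosen after seeing the data, the 9 embryonic globins summed to 5885, 5013 and 391 CPM at the 3 later ages. As a share of all these globin counts, adult globins were 0.00549% (exact interval 0.00150 to 0.0141%), 0.348% (0.311 to 0.388%), 6.48% (6.32 to 6.65%) and 90.4% (90.3 to 90.6%). With hbbe1.1 and hbbe1.2 counted, the share was 0.145% at 6 dpf, 3.81% at 10 dpf and 85.8% (85.6 to 85.9%) at 16 dpf, so the values depend on the genes counted and their order does not. The same share in runx1-/- cells was 0.0112%, 0.525% and 9.37% at 2.5, 6 and 10 dpf, and at 16 dpf 37.8% (bloodless) and 49.0% (recovered). These genes are near-identical copies within each cluster of the genome, and how the authors' counting divided reads between copies is not given in the sources used here, so values of single copies are less certain than the sums.

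Single adult globins followed the sum. The alpha chain gene hbaa1 was at 0, 2.38, 46.6 and 576 CPM in order of age. The beta chain symbol hbba1 belongs to 2 identifiers, and the copy ENSDARG00000089087 was at 0, 3.29, 135 and 1558 CPM, the copy ENSDARG00000097238 at 0, 1.83, 19.4 and 254 CPM. All 3 were read at a higher level at each later age than at the one before. The step from 2.5 to 6 dpf, however, compares libraries with different gene lists. The 318 adult globin counts at 6 dpf lay in 278 cells, with at most 4 in a cell. Whether that step was a rise in expression was not tested. From 2.5 to 16 dpf hbaa1 was at least 5271-fold higher, measured against the 0.109 CPM that 3 counts would make in the 2.5 dpf library. The remaining adult genes, hbaa2 at 0, 0.356, 0.421 and 1.38 CPM and hbba2 at 0.146, 0.849, 0.561 and 3.63 CPM, were low at every age.

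Embryonic globins differed from each other in their timing. The alpha-type gene hbae3 was at 938, 1089, 108 and 4.09 CPM, a log2 ratio of −8.05 from 6 to 16 dpf (−8.21 to −7.90). At 6 dpf 98.7% of its counts lay in erythroid-like cells, where it stood at 13189, 3000, 474 and 23.2 CPM in order of age, so it was lower at each later age within the class as well. At 16 dpf 46.0% of its remaining 341 counts came from 1 cell. Another alpha-type gene, hbae5, was at 2.80, 4.60, 455 and 24.8 CPM, low at 2.5 and 6 dpf and highest at 10 dpf. The embryonic beta gene hbbe2 was at 72.3, 894, 1646 and 95.6 CPM, also highest at 10 dpf. The genes that the files name hbae1.1 were at 985.69, 193.36, 338.23 and 50.6 CPM (ENSDARG00000088330, hbae1.2 in the name table) and at 6.85, 19.4, 37.1 and 10.5 CPM (ENSDARG00000089475). For hbae1.3 the levels were 634, 287, 329.67 and 66.3 CPM. The embryonic set was therefore not a single block: hbae3 ended first, hbbe2 and hbae5 peaked at 10 dpf, and hbae1.3 was lower at 6 dpf than at 2.5 dpf and lower again at 16 dpf.

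**Figure D2:**
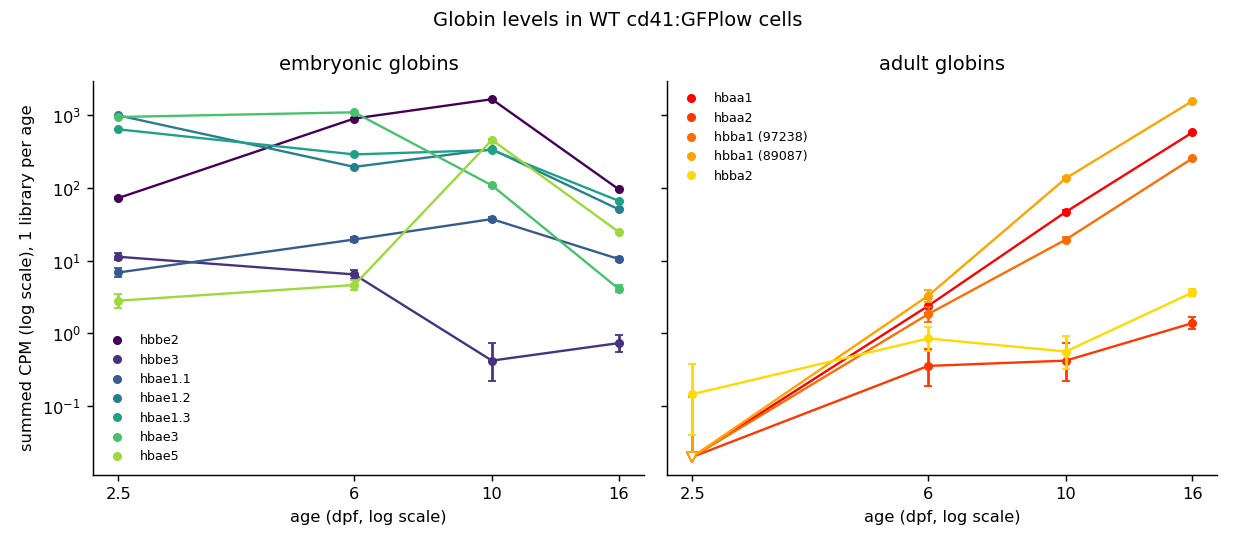
Level of each globin gene (CPM of summed counts, log axis) against age in WT, with embryonic genes in one panel and adult genes in the other; bars are exact 95% Poisson intervals and open triangles mark 0 counts. hbae3 goes from 1089 CPM at 6 dpf to 4.09 at 16 dpf, while hbaa1 goes from 2.38 to 576.

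The place of the adult globin counts differed between ages. At 6 dpf the 318 adult counts were spread over the classes, with 8.18 CPM in erythroid-like cells (6.70 to 9.88), 8.62 in HSPC-like (7.14 to 10.3), 9.05 in neutrophil-like (6.58 to 12.2) and 8.21 in epidermis-like cells (3.76 to 15.6). The level was thus alike in red cells and in epidermis. Whether these counts were background or expression was not tested, and ratios against 6 dpf are ratios against this level. At 10 dpf 99.9% of the 5760 adult counts lay in erythroid-like cells, at 912 CPM (889 to 936), while HSPC-like, T and NK lymphoid-like, macrophage-like and thrombocyte-like cells had 0 counts. At 16 dpf erythroid-like cells held 96.5% of them, at 17863 CPM, and the other classes apart from the germ cell-like one were between 5.24 and 23.4 CPM. Germ cell-like cells held 5739 adult counts, of which 92.8% came from 6 cells rich in globin. Within the erythroid-like class the embryonic sum was 31884, 6761, 12725 and 1671 CPM in order of age, lowest at 16 dpf. The class fell into different clusters at the ages. With the 4 WT libraries clustered together, an erythroid-like cluster led by hbae3 held 484 cells at 6 dpf and 10 at 16 dpf. One led by si:ch211-5k11.8 and the adult globins held 3 and 264. No correction for library was made, so age and library cannot be told apart in this split.

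Cell by cell, 30, 174, 113 and 166 cells held at least 100 globin UMIs, and these few cells, 1.36% to 6.38% of a library, carried 81.7% to 97.0% of its globin UMIs. At 2.5 and 6 dpf all of them had under 10% adult globin. At 10 dpf 103 cells were under 10%, 5 were between 10 and 90% and 5 were above 90%. At 16 dpf 27 were under 10%, 4 were between and 135 were above 90%, with a median of 99.8% adult. With hbbe1.1 and hbbe1.2 counted, 133 of 166 were above 90% at 16 dpf and 6 of 124 at 10 dpf. Cells that carried both sets in comparable amounts were few at the 2 ages where both were present. Doublets were left in for these counts.

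**Figure D3:**
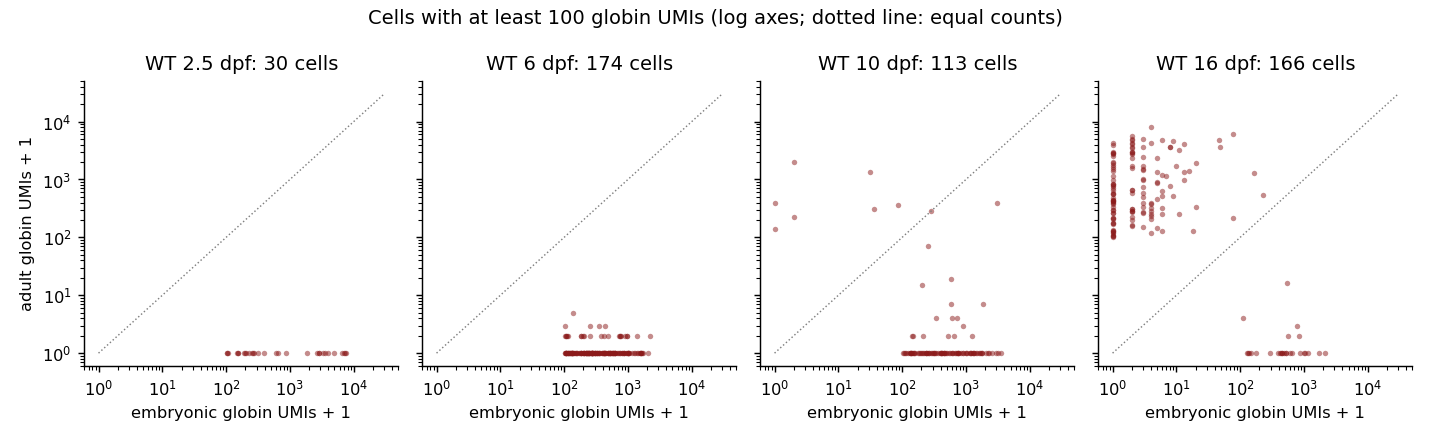
Adult against embryonic globin UMIs per cell (each plus 1, log axes) for WT cells with at least 100 globin UMIs, 1 panel per age with 30, 174, 113 and 166 cells; the dotted line marks equal amounts. Cells lie on the embryonic side at 2.5 and 6 dpf, and 135 of 166 lie above 90% adult at 16 dpf.

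Of the 14761 genes with at least 50 counts over WT 6, 10 and 16 dpf, 2891 (19.6%) were at least 4-fold higher at 16 than at 6 dpf and 240 (1.63%) at least 4-fold lower. The median log2 ratio of all these genes was 0.86, and the 100 highest genes held 73.9% of counts at 6 dpf against 63.1% at 16 dpf. The interval of the ratio was above 0 for 69.3% of genes and below 0 for 13.8%. With trimmed mean of M-values (TMM) scaling the median was 0.05 and the counts were 1752 higher and 664 lower, so the higher share of such genes was 92.3% by CPM and 72.5% by TMM. Without the named non-blood clusters, left out after seeing the data, 865 of 12341 genes were at least 4-fold higher and 264 lower, with a median of 0.39. Ratios given below are in CPM, and a gene at the median of all genes has a log2 ratio of 0.86. From 2.5 to 6 dpf 565 of 11637 genes (4.86%) were at least 4-fold higher and 1898 (16.3%) at least 4-fold lower, with a median of −0.58. Against the background of 6 to 16 dpf, 4 of the 7 embryonic globins were at least 4-fold lower and 1 (hbae5) at least 4-fold higher. Of the 5 adult globins 4 were at least 4-fold higher and 0 lower.

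Red cell genes other than globins did not share the globin order. For 21 genes of heme synthesis and the red cell membrane, the median log2 ratio from 6 to 16 dpf was −0.08, or −0.94 relative to all genes. At least 4-fold higher was 1 of them, beside 19.6% of all genes, and 0 were lower, beside 1.63%. The one was nt5c2l1, a nucleotidase gene, at 34.05, 30.6, 81.2 and 238 CPM, a log2 ratio of 2.96 (2.88 to 3.05). The anion exchanger gene slc4a1a was at 59.6, 98.1, 149 and 91.7 CPM, highest at 10 dpf. For hemgn, an erythroid nuclear protein gene, the levels were 47.7, 75.7, 238 and 173 CPM. The rate-limiting heme synthesis gene alas2 was at 6.30, 5.45, 12.5 and 9.52 CPM. All 3 were thus highest at 10 dpf. Within erythroid-like cells the sum of the set was 3220, 1865, 4641 and 4561 CPM, lowest at 6 dpf and alike at 10 and 16 dpf.

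Erythroid regulators summed to 489, 799, 702 and 322 CPM in order of age. From 6 to 16 dpf 3 of 10 were at least 4-fold lower, beside 1.63% of all genes, and 0 higher, beside 19.6%. The median log2 ratio was −1.46, or −2.32 relative to all genes. The erythroid master factor gata1a was at 13.2, 16.6, 15.6 and 3.56 CPM (log2 ratio −2.22), so 16 dpf stood below the other 3 ages. The Krüppel-like factor klf1 was at 7.61, 5.48, 1.75 and 1.06 CPM, lower at each age. The third, lmo2, a bridging factor of the Tal1 and Gata complexes that is shared with stem cells, was at 140, 229, 150 and 51.3 CPM (−2.16, −2.21 to −2.11). The erythropoietin receptor epor was at 12.3, 4.46, 2.14 and 1.21 CPM. These levels went down while the erythroid-like share of cells also went from 25.6% to 7.36%, and within that class the sum of the regulators was 1083, 853, 1248 and 591 CPM, which is highest at 10 dpf and lowest at 16 dpf.

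Among 19 stem and progenitor regulators, 4 were at least 4-fold lower from 6 to 16 dpf, beside 1.63% of all genes, and 1 higher, beside 19.6%. The median was −0.76, or −1.62 relative to all genes. The sum of the set was 1466, 748, 1082 and 519 CPM. Of the 2 factors in the study's title, runx1 was at 0.0364 (1 count), 1.89, 1.96 and 0.696 CPM, a log2 ratio of −1.44 (−1.97 to −0.92), and was low at every age. The gata2 copies differed in their ratio: gata2b, which marks hemogenic endothelium and stem cells in zebrafish, was at 17.9, 19.1, 14.0 and 5.61 CPM (−1.77, −1.94 to −1.60), and the log2 ratio of gata2a was 0.50. The median gene had a ratio of 0.86, so relative to all genes both copies were lower at 16 dpf. The progenitor factor myb was at 123, 171, 324 and 132 CPM, highest at 10 dpf. As myb is itself a marker in the thinned HSPC call, its order by age is not separate from that call.

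The 4 lower ones were lmo2 (given above), kita, hhex and gfi1ab. The Kit receptor gene kita was at 0.765, 4.90, 2.49 and 0.288 CPM (−4.04, −4.77 to −3.47), and hhex, a homeobox gene of blood and endothelium, at 2.37, 9.53, 9.37 and 1.39 CPM (−2.77). Both were highest at 6 dpf. The higher one was a copy of adgrg1 (gpr56), an adhesion receptor gene of stem cells, at 56.8, 9.72, 135 and 63.8 CPM (ENSDARG00000105643, 2.71), and the second adgrg1 entry had the same shape at 15.5, 9.64, 57.8 and 26.2 CPM. For tcf15 the levels were 700.02, 56.3, 61.9 and 48.4 CPM, and for drl 61.0, 1.67, 2.42 and 0.624 CPM. Those 2 were high at 2.5 dpf alone. Without the named non-blood clusters, an alternative chosen after seeing the data, the counts were again 4 lower and 1 higher, with a median of −0.66.

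Neutrophil granule and effector genes went the other way: 4 of 13 were at least 4-fold higher from 6 to 16 dpf, beside 19.6% of all genes, and 0 lower. Their median was 1.54, or 0.68 relative to all genes, with 9 members above the median of all genes and 4 below. The lysozyme gene lyz was at 2594, 3088, 3844 and 11695 CPM, a log2 ratio of 1.92 (1.11 with TMM scaling), and 99.1% of its counts at 16 dpf lay in neutrophil-like cells. The leukocyte chemotactic factor lect2l was at 43.6, 42.3, 102 and 825 CPM (4.28, 4.21 to 4.36). Both stood above all earlier ages at 16 dpf. The peroxidase gene mpx, at 99.96, 42.5, 63.2 and 69.9 CPM, and the metalloprotease gene mmp13a, at 128, 1.07, 1.54 and 5.31 CPM, were instead highest at 2.5 dpf. Within neutrophil-like cells lyz was at 68305, 23142, 38442 and 129520 CPM and mpx at 2329, 251, 528 and 737 CPM. At 6 dpf 137 and 96 of the 316 cells of that class came from clusters with no neutrophil marker among their leading genes, so the class level at 6 dpf mixes both kinds.

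Myeloid regulators were mixed, with 2 of 11 at least 4-fold lower and 0 higher, beside 1.63% and 19.6% of all genes. The PU.1 gene spi1b was at 36.6, 104, 122 and 211 CPM (1.02) and cebpa at 119, 135, 151 and 282 CPM (1.07), both highest at 16 dpf and close to the median ratio of all genes. The inflammatory factors cebpb and cebpd were at 822, 1554, 1465 and 706 CPM and at 103, 71.4, 5.72 and 6.54 CPM. The ratio of cebpd (−3.45) was one of the 2 past 4-fold, and the other was egr1, which is described with the immediate early genes. Of 16 macrophage genes, 5 were at least 4-fold higher, beside 19.6% of all genes, and 0 lower. The median of the 16 was 0.32 relative to all genes, with 8 members above the median of all genes and 8 below. One of the 5 was the granulin gene grn1, at 2.99, 2.46, 24.0 and 33.3 CPM (3.74), while mfap4, used as a macrophage marker in zebrafish, was at 117, 11.8, 13.05 and 6.33 CPM.

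Genes of antigen presentation by MHC class II summed to 67.2, 55.1, 154 and 266 CPM in order of age. From 6 to 16 dpf 4 of 7 were at least 4-fold higher, beside 19.6% of all genes, with a median of 3.12, or 2.26 relative to all genes. The invariant chain gene cd74a was at 0.218, 3.15, 24.7 and 49.9 CPM (3.98, 3.72 to 4.27) and its paralog cd74b at 1.35, 9.83, 51.1 and 91.8 CPM (3.22). The chain genes mhc2dab and mhc2b had log2 ratios of 3.81 and 3.12. All 4 were lowest at 2.5 dpf and highest at 16 dpf. Most of the sum at 2.5 dpf came from other members of the set, which also lists cathepsin genes. By class, cd74a was at 253 CPM at 10 dpf and 210 at 16 dpf in T and NK lymphoid-like cells, at 25.5 and 135 CPM in macrophage-like cells, and at most 1.59 CPM in erythroid-like cells at any age. HSPC-like cells had 1.23 CPM at 6 dpf and 192 CPM at 16 dpf, but the clusters of that name differed in their leading genes between these ages. With the 4 WT libraries clustered together, again without correction for library, the one led by fstb and nkx2.3 held 0 cells at 6 dpf and 609 at 16 dpf. The one that held blf and dachb among its leading genes held 627 and 16. TMM scaling left the 4 genes past 4-fold with a median of 2.31. The transactivator gene of the pathway, ciita, had a log2 ratio of 0.08.

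Lymphoid genes were low and did not share a direction, with a median of −0.42, or −1.28 relative to all genes. Of the 18, 14 lay below the median of all genes and 4 above. At least 4-fold higher were 3 of 18, close to the 19.6% of all genes, and 0 were lower. Without the named non-blood clusters, left out after seeing the data, 1 of 16 was at least 4-fold higher and 1 lower. All genes then gave 865 and 264 of 12341, and the lymphoid median was −1.35. The NK-lysin gene nkl.4 was at 0.218, 1.89, 17.7 and 9.85 CPM (2.36), highest at 10 dpf. The T-cell coreceptor genes cd4-1 and cd8b had 0 counts at 6 dpf and 0.924 and 0.564 CPM at 16 dpf, at least 11.2-fold and at least 6.86-fold higher against the 0.0821 CPM of 3 counts. The recombinase gene rag1 was at 0.0364, 2.38, 0.210 and 1.06 CPM, and dntt was at 0 counts in all 4 libraries. The sum of the set, 240, 618, 1021 and 818 CPM, was carried by the chemokine receptor gene ccr9a, at 170, 504, 884 and 755 CPM. At 16 dpf ccr9a stood at 1982 CPM in neutrophil-like, 2525 in macrophage-like and 3618 in T and NK lymphoid-like cells, so its level is not specific to lymphoid cells here. Only 2 B-cell genes of the list had 50 counts, cd79b was at 0 counts at every age, and thrombocyte genes had 0 of 12 past 4-fold in either direction with a median of −0.45.

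Proliferation genes were lowest at 6 dpf. The sum of the DNA replication genes was 1623, 692, 1456 and 1853 CPM and that of the mitosis genes 829, 265, 979 and 617 CPM. From 6 to 16 dpf 4 of 22 replication and 4 of 21 mitosis genes were at least 4-fold higher, close to the 19.6% of all genes, and 0 were lower. With TMM scaling 0 and 1 were at least 4-fold higher. The sliding clamp gene pcna was at 389, 152, 315 and 392 CPM (1.37), the ribonucleotide reductase gene rrm2 (ENSDARG00000078069) at 227, 44.5, 125 and 225 CPM (2.34), and mki67 at 135, 57.4, 243 and 120 CPM (1.06). The survivin gene birc5a, at 45.9, 6.08, 17.3 and 50.5 CPM, had a log2 ratio of 3.05.

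Counted per cell at 2000 UMIs, 50.9%, 24.5%, 49.2% and 47.5% of cells had at least 2 UMIs of replication genes in order of age, against 75.1%, 55.2%, 73.6% and 74.8% before thinning. The mitosis genes gave 25.6%, 7.36%, 29.5% and 19.6%. The 6 dpf library was lowest on both, before and after thinning. Within erythroid-like cells the replication share was 77.3%, 18.2%, 79.6% and 88.3%, within HSPC-like cells 65.0%, 35.7%, 52.3% and 50.6%, and within neutrophil-like cells 24.7%, 18.5%, 28.8% and 22.5%. The 6 dpf value was thus the lowest in these 3 classes, though the neutrophil-like intervals at 6 dpf (14.3 to 23.4%) and 16 dpf (19.3 to 26.0%) overlapped. T and NK lymphoid-like cells went the other way, at 19.15%, 16.34% and 13.04% from 6 dpf on. Part of the 16 dpf signal lay in germ cell-like cells, in which the replication share was 100% and the mitosis share 86.7%. Without the named non-blood clusters the sums at 6 and 16 dpf were 710 and 1435 CPM for replication and 269 and 418 CPM for mitosis, with 1 gene of each set at least 4-fold higher.

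**Figure D4:**
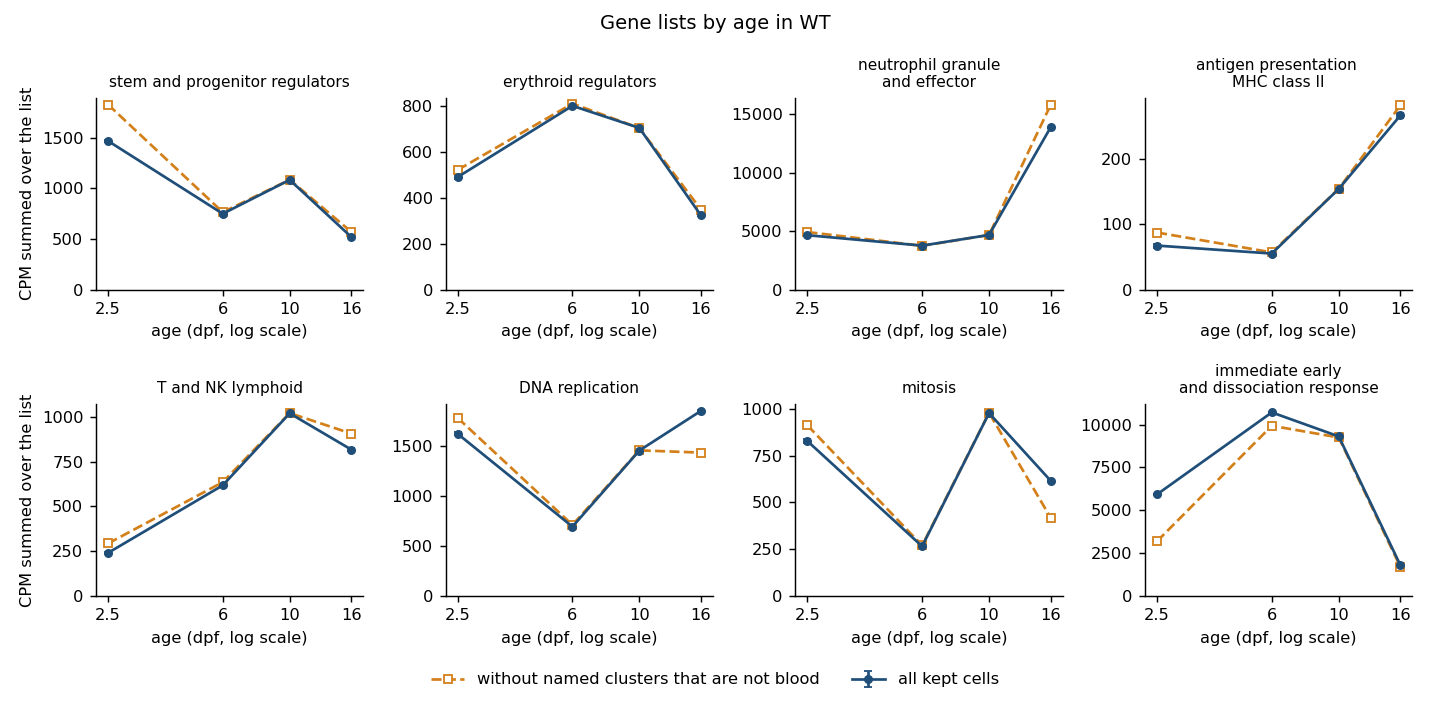
Summed level of 8 gene sets (CPM) against age in WT, over all kept cells and without the named non-blood clusters, 1 library per age. Neutrophil granule genes reach 13863 CPM at 16 dpf, MHC class II genes are highest at 16 dpf (266 CPM), replication and mitosis genes are lowest at 6 dpf, and immediate early genes are lowest at 16 dpf (1795 CPM).

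Immediate early and heat shock genes, which cells switch on within minutes of stimulation, heat or tissue dissociation, were highest at 6 and 10 dpf. The sum of 24 such genes was 5927, 10716, 9312 and 1795 CPM in order of age. From 6 to 16 dpf 16 of the 24 were at least 4-fold lower and 0 higher, beside 1.63% and 19.6% of all genes. All 24 had intervals below 0, beside 13.8% of all genes. The median log2 ratio was −2.44, or −3.30 relative to all genes. With TMM scaling 20 of the 24 were at least 4-fold lower, beside 664 of all 14761 genes.

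Members of the AP-1 family, transcription factors of the early response, were among them. The gene fosab was at 807, 774, 195 and 62.4 CPM (−3.63) and junbb at 133, 358, 98.5 and 24.99 CPM (−3.84). For jun the levels were 452, 1005, 412 and 189 CPM (−2.41). The zinc finger factor egr1 was at 33.8, 92.1, 12.4 and 7.47 CPM (−3.62) and the phosphatase gene dusp2 at 43.2, 215, 43.4 and 15.1 CPM (−3.84). The last 4 of these 5 were highest at 6 dpf and all 5 were lowest at 16 dpf. Heat shock genes were higher for longer: hsp70l was at 263, 802, 886 and 70.5 CPM (−3.51), hsp70.2 at 575, 1123, 1410 and 131 CPM and hsp70.1 at 180.18, 347, 935 and 41.1 CPM, all highest at 10 dpf. The hsp70 genes are close copies of each other, so the division of reads between them is uncertain. Their co-chaperone dnajb1b was at 415, 1349, 463 and 103 CPM (−3.71).

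In all 5 named classes with at least 50 cells at both ages the level was lower at 16 than at 6 dpf, while the age of the highest level differed. HSPC-like cells had 2706, 11182, 6657 and 3540 CPM of the set in order of age, neutrophil-like cells 2024, 8145, 5014 and 838 CPM, and erythroid-like cells 2761, 6004, 11342 and 2372 CPM. In T and NK lymphoid-like cells the levels were 25188, 13254 and 2440 CPM from 6 dpf on, and epidermis-like cells had 34847 CPM at 6 dpf and 14493 CPM at 16 dpf. Erythroid-like cells were highest at 10 dpf and HSPC-like cells, whose clusters had other leading genes at each age, were lowest at 2.5 dpf. Cells of unnamed clusters held 3777, 25377, 10064 and 1291 CPM. At 10 and 16 dpf clusters of 137 and 202 cells with few UMIs, a median of 2769 and 3022 per cell, were led by fosab and jun. Each age was captured in its own library, so age, handling and dissociation cannot be told apart for this set.

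**Figure D5:**
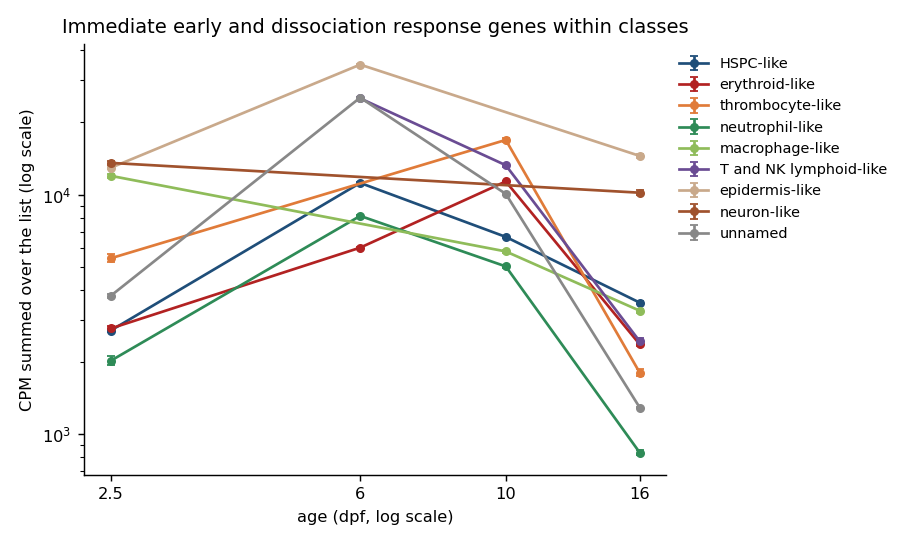
Summed level of the immediate early and heat shock genes (CPM, log axis) against age within each named class of WT cells with at least 50 cells at that age, and in cells of unnamed clusters (grey). All 5 named classes present at both ages are lower at 16 than at 6 dpf, for example 8145 and 838 CPM in neutrophil-like cells.

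The steps from 6 to 10 and from 10 to 16 dpf were followed in the 3774 genes with at least 50 counts that reached 20 CPM. Of these, 1369 were higher at both steps, with intervals beyond 0, and 210 were lower at both. The 12 of the 1369 with the highest ratio of 16 to 6 dpf were mostly germline genes. The helicase gene ddx4 was at 1.86, 0.0821, 3.12 and 212 CPM, a log2 ratio of 10.92 (9.79 to 13.61) on 3 counts at 6 dpf. The Piwi gene piwil1 was at 0.364, 0.110, 1.05 and 121 CPM, and hormad1, a meiotic axis gene, at 0, 0, 0.210 and 40.5 CPM. The tubulin gene tuba7l had 0 counts at 6 dpf and 71.4 CPM at 16 dpf, at least 869-fold higher. The other germline-linked ones were exd1, elavl2, chtopb, org, si:ch211-226l4.6 and zgc:103482, and at 10 dpf 6 of the 10 genes, ddx4 (89 counts), piwil1 (30), hormad1, exd1, elavl2 and si:ch211-226l4.6, had all their counts in 1 cell, so that their step from 6 to 10 dpf rests on it. In all 10 genes 97.8% to 99.1% of the 16 dpf counts lay in the 327 germ cell-like cells.

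The last 2 of the 12 were of other origin. The unannotated gene si:ch211-5k11.8 was at 0, 2.79, 200.02 and 2066 CPM (9.52, 9.25 to 9.83), higher at each age as the adult globins were. At 6 dpf its 102 counts were scattered over 100 cells, and at 16 dpf 96.2% of its counts lay in erythroid-like cells. The follistatin gene fstb was at 1.97, 0.0548, 20.1 and 57.4 CPM (9.45, 8.18 to 13.08), with 2 counts at 6 dpf. It led the cluster of 551 HSPC-like cells at 16 dpf, which held 45.2% of its counts there.

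The 12 genes lower at both steps with the lowest ratio were mostly of 3 kinds. The first was hbae3. Genes of epidermis-like cells made up the second: the keratin gene krt91 was at 3029, 1392, 43.1 and 31.0 CPM (−5.49), ecrg4b at 151, 26.9, 0.456 and 0.180 CPM (−7.13), epgn at 32.0, 36.1, 2.17 and 0.372 CPM (−6.56), mmp30 at 4.30, 27.1, 1.298 and 0.756 CPM (−5.14) and zgc:92380 at 100.4, 103, 3.47 and 1.49 CPM (−6.11). At 6 dpf 98.9% to 99.9% of the counts of these 5 lay in the 192 epidermis-like cells, the class whose share by clusters was 7.04% at 6 dpf and 1.88% at 16 dpf, although the thinned epidermal call did not go down between these ages. The third kind was the immediate early genes junbb, dusp2, dnajb1b, fosab and egr1, which were found at 6 dpf in 1090 (dusp2) to 2385 (dnajb1b) of 2728 cells. The linker histone gene histh1l stood outside these kinds, at 237, 412, 240 and 26.9 CPM (−3.93), with 61.4% of its 6 dpf counts in erythroid-like cells.

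The test across ages took its spread from WT and runx1-/- libraries together, and with the 3 or the 4 WT libraries alone 0 genes passed. The slope of log2 expression per doubling of age in WT was tested over the 7 libraries at 6, 10 and 16 dpf. These were 3 WT and 4 runx1-/- libraries. The quasi-likelihood test of edgeR was used, with 3 residual degrees of freedom, adjusted by the method of Benjamini and Hochberg. Those 3 come from departures of the ages from a straight line in each genotype and from the difference between the bloodless and recovered libraries. Of 17616 genes, 4 (0.0227%) passed an adjusted p of 0.05 with a rise and 0 with a fall, and 1515 and 913 had an unadjusted p below 0.05, whereas DESeq2's Wald test called 401 and 257. The 4 were the digestive enzyme genes prss59.1 (slope 20.025, SE 1.36, adjusted p = 0.0114), ctrb1 (14.9, SE 1.19, 0.0114), CELA1 (1 of many) (13.7, SE 1.29, 0.0287) and ela3l (18.1, SE 1.39, 0.0453) of the exocrine pancreas. In WT all 4 had 0 counts at 6 dpf, and prss59.1 and ela3l also at 10 dpf, so the counts do not set the size of these slopes. From 6 to 16 dpf the 4 were at least 1174-, 1330-, 1098- and 475-fold higher, against the 0.0821 CPM of 3 counts. At 16 dpf 64.8% to 72.9% of the counts of each gene came from 1 cell. Without the 2 cells in which at least 10% of UMIs were acinar, left out after seeing the data, 0 genes passed.

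No blood gene passed this edgeR test after Benjamini-Hochberg adjustment over all genes, though several ranked high. The slope was −3.23 for fosab (SE 0.523, adjusted p = 0.0975), −6.33 for hbae3 (SE 1.12, adjusted p = 0.0990) and 5.64 for the hbba1 copy ENSDARG00000089087 (SE 0.936, adjusted p = 0.0975). At an unadjusted p below 0.05, 21 of 24 immediate early genes, 6 of 10 erythroid regulators and 6 of 20 stem and progenitor regulators had a lower slope and 0 a higher one. Of 5 adult globins, 3 had a higher one. A lower slope was also found for 5 of 11 myeloid regulators, 5 of 19 lymphoid genes (1 higher) and 3 of 7 embryonic globins. Over all 17616 genes, 913 had a lower and 1515 a higher slope at this p. The sets were chosen with earlier results of these data known. For MHC class II genes 0 of 7 passed even unadjusted, with a lowest adjusted p of 0.413. With 1 common slope for both genotypes, edgeR's adjusted p passed for hbba1 ENSDARG00000089087 (0.0165), hbaa1 (0.0192), junbb and egr1 (0.0165 each) and fosab (0.0220), and for hbae3 it did not (0.529). The same genes in runx1-/- cells had slopes that differed from WT for 0 genes after adjustment, with 1482 below an unadjusted p of 0.05. The difference for hbae3 was 8.03 (adjusted p = 0.582), with 1336, 11320, 14309 and 8237 CPM in the runx1-/- libraries at 6 dpf, 10 dpf and in the bloodless and recovered ones.

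The most abundant transcripts were the same kind at every age. The highest was si:dkey-151g10.6, at 27050, 25147, 24889 and 25144 CPM in order of age. CR383676.1, malat1 in the name table, a nuclear non-coding RNA, was at 21252, 13794, 17732 and 12004 CPM, and ribosomal protein and elongation factor genes such as rplp0, rps7 and eef1a1l2 followed. The 8 highest genes at 16 dpf included lyz, the only cell-type gene among them, and the actin-binding thymosin gene tmsb4x was among the 8 highest at 2.5 dpf alone, at 11100 CPM against 2076 to 3403 later. The 81 ribosomal protein genes had a median log2 ratio of −0.26 from 6 to 16 dpf, or −1.12 relative to all genes. Of them 80 lay below the median of all genes. The sum of the ribosomal set was 441510, 577600, 473970 and 481190 CPM in order of age, highest at 6 dpf. For the 13 mitochondrial genes the median was 0.73, or −0.13 relative to all genes. Of either set 0 were past 4-fold, beside 19.6% of all genes higher and 1.63% lower.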

How the data were processed

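Cells with low cd41:GFP were profiled on 10x Genomics Chromium with the version 3 kit for transcript 3' ends, per the labels' protocols. The authors deposited unnormalized UMI counts per gene and barcode. The submitters' processing notes name Cell Ranger 2.0.2 and GRCz10, and per the file headers the 6 and 16 dpf matrices carry software version 3.1.0. Whether counting used strand is not given in the sources used here. No reference sequence or coordinate was used.

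Counts were summed per library over kept cells. CPM have exact 95% Poisson intervals, 1 count was added to each side of a log2 ratio, whose interval is exact binomial given the total, and shares have Clopper-Pearson intervals. UMIs collapse amplified copies, and all intervals cover counting error only. Clusters used scanpy 1.11.5 (2000 variable genes without globin, ribosomal, mitochondrial, cell cycle and immediate early genes, 30 components, 15 neighbours, Leiden resolution 1). A name needed 3 markers and a score of 0.75, and for non-blood classes a score of 1.5 or an own marker among the 10 leading genes. Scrublet called 1 to 5 doublets per WT library and was judged not to have worked, so doublets stayed in. The slope test used edgeR 4.0.16 (TMM, filterByExpr, quasi-likelihood, Benjamini-Hochberg) in R 4.3.3. No group had a replicate, so its p-values measure slopes against the scatter of these libraries around straight lines of log2 age. That scatter includes any bend with age and the difference between the bloodless and recovered libraries, and may be technical. It is not a spread between replicates. The size rule was 4-fold, on genes with at least 50 counts. Named genes were those of the lists, the 12 most higher and 12 most lower genes that moved at both steps and reached 20 CPM (at most 3 clone-type names each way), and the 8 highest per age. Cells, lists and markers were chosen with earlier results of these data known, and the cluster naming rule was set after cluster tables were seen. The scripts were tested on simulated data. Alternatives changed cell filters, scaling, count minimum, prior, clustering and the libraries of the slope test.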

Additional observations from a re-analysis of the deposited data

How the results depend on the processing

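No paired analysis was possible because every group has 1 library and the labels number no replicates. Against 2891 genes at least 4-fold higher and 240 lower from 6 to 16 dpf, there were 1752 and 664 with TMM, 1749 and 666 with DESeq2 size factors, 1959 and 409 with per-cell means, 4445 and 323 at a minimum of 10 counts, 4518 and 535 at 1 count, and 865 and 264 without the named non-blood clusters (chosen after seeing the data). The CPM ratios of tmsb4x and rpl39 were above 0 and became −0.10 and −0.75 with TMM and −0.11 and −0.76 with DESeq2 factors. The adult globin share was 6.01% at 10 dpf and 88.4% at 16 dpf with per-cell means, 90.58% at 16 dpf without top-scored doublets, and 3.81% and 85.75% with the embryonic globins of the later gene list (chosen after seeing the data).

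The 4 genes with a WT slope became 2 with at least 3000 UMIs, 43 without barcodes found in another library, 0 without cells rich in acinar UMIs (both chosen after seeing the data), 2 with DESeq2 factors in edgeR, 166 higher and 33 lower with no filter but 1 count, 0 with the 3 or the 4 WT libraries only, 0 without the bloodless and 0 without the recovered library, 320 and 272 with 1 common slope, 78 with age in days, and 401 and 257 by DESeq2's Wald test.

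Clusters that scored highest for HSPC markers, named or not, held 37.7% of cells at 6 dpf and 31.1% at 16 dpf. That is a smaller fall than in the named HSPC-like share, and the naming rule was set after cluster tables were seen. The log2 ratio of the HSPC-like share, −2.06, was −1.28 and −1.69 at resolution 0.5 and 2 and −1.89 with 3000 UMIs. It was −1.76 with the 4 WT libraries clustered together and −1.09 by thinned calls. The erythroid-like one, −1.80, was −2.31 at resolution 0.5, −1.04 with 3000 UMIs, −2.40 with at least 500 genes and at most 10% mitochondrial UMIs, −1.49 without doublets, −1.59 without shared barcodes, −1.99 together and −1.29 thinned. The T and NK lymphoid-like one, −0.49, turned to 0.24 at resolution 2 and was −3.23, −0.92, −1.62, −1.13, −1.07 and −1.10 under the other 6 settings in that order, with no value at resolution 0.5. Causes were not tested. Named genes kept their value within counting error in 298 of 418 checks, moved in 116 and reversed in 4.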
